A study of Mus musculus with 12 samples.

Results

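The genes described here encode the digestive machinery of the lysosome: cathepsins and legumain, glycosidases, lipid and other hydrolases with their activators, lysosomal membrane proteins, subunits of the proton pump, and the transcription factors Tfeb and Tfe3. The list held 36 genes, chosen by name and not by their measured values, though earlier results of these data were known. A gene was taken from the value table where it was the only symbol of a probe cluster. This found 34 of the 36 genes in 36 of the 41345 clusters, since Smpd1 and Atp6v1b2 each had 2 clusters. Glb1, lysosomal beta-galactosidase, lay only in a cluster with several symbols, and no cluster was matched to Atp6v0c, the proteolipid of the pump's membrane ring. All 34 genes passed the level filter and were among the 14611 genes tested.

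The study measured total RNA of RAW 264.7 cells, a mouse monocyte and macrophage line transformed by Abelson murine leukemia virus, on Affymetrix whole-transcript arrays. Cells received an irrelevant scramble, pre-miR-223, which supplies the microRNA, or anti-miR-223, which blocks it, and were collected 48 h after transfection. Each of the 3 groups had 4 arrays, labelled as biological replicates of 1 cell line. The labels do not say whether these were separate cultures, so p-values measure the spread between these samples, and 4 arrays per group limit the precision. No cluster carried the symbol Mir223 alone, so the delivery of either reagent was not checked in these values.

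Lysosomes break down proteins, glycans, lipids and nucleic acids in an acidic lumen, which the vacuolar proton pump maintains. Macrophages rely on them to digest what they engulf, and cathepsins also trim antigens there. TFEB and TFE3 are related helix-loop-helix factors that move to the nucleus when nutrients are scarce and bind palindromic E-boxes near many lysosomal genes, so lysosomal transcripts are known to rise and fall as a set.

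The annotated sequences of both arms of miR-223 are shown because the reagents were named for this microRNA. The seed of each, bases 2 to 8, is in capitals. The sequences come from RefSeq (GRCm38.p6), where the 3p arm, commonly the guide strand, lies at chrX:96242884-96242905 and the 5p arm at chrX:96242842-96242864, both on the plus strand. The arms have different seeds, and which arm each reagent supplied or blocked was not checked here. Target sites of these seeds in the lysosomal genes were not analysed here.
mmu-miR-223-3p: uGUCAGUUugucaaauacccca
mmu-miR-223-5p: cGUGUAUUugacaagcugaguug

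The upstream stretches below come from lysosomal genes picked because they hold the E-box heptamer TCACGTG, the core of the element that TFEB recognises. Capitals mark each match to it on either strand (overlapping matches in the palindrome TCACGTGA run together). Stretches are written 5′ to 3′ on the strand of the gene, from RefSeq GRCm38.p6, and lie before the annotated start. Lamp1 is at chr8:13159081-13159160 (plus strand), Mcoln1 at chr8:3500429-3500498 (plus), Cln3 at chr7:126583337-126583396 (minus) and Ctsd at chr7:142387898-142387947 (minus). Gla is at chrX:134601176-134601245 (minus), Ctsa at chr2:164833733-164833772 (plus) and Atp6v1a at chr16:44139360-44139409 (minus).
Lamp1: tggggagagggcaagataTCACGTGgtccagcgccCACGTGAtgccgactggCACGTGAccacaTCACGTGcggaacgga
Mcoln1: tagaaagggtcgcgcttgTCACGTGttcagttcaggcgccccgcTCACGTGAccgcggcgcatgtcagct
Cln3: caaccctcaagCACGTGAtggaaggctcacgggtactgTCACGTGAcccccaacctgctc
Ctsd: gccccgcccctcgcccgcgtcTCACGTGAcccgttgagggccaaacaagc
Gla: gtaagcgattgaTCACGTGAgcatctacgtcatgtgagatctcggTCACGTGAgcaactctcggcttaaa
Ctsa: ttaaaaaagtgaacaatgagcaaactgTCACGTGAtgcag
Atp6v1a: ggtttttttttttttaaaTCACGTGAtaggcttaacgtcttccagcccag

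Promoter windows of 300 bases, 250 before to 50 after the annotated start, were matched for 31 of the 36 genes in 40 windows; Asah1, Atp6v1b2, Atp6v1h, Ctsb and Ctsh had no entry. TCACGTG, searched on both strands, was present for 12 of the 31 genes, against 4.29% of the 27025 genes in the table, and in 30.0% of the 40 windows against 3.77% of all promoters. Those 12 genes were Atp6v0d1, Atp6v1a, Cln3, Ctsa, Ctsd, Gaa, Gla, Glb1, Lamp1, Lgmn, Mcoln1 and Naglu. The full palindrome TCACGTGA, which contains the heptamer, was found for 7 of the 31 genes against 1.12% of all genes. The shorter core CACGTG, contained in both, was found for 13 of the 31 genes against 8.09%. These matches describe letters in the window and do not show binding.

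Before the comparisons, 1 array stood apart. Anti-miR-223 replicate 4 had a median correlation of 0.967 with the other arrays over the genes tested, against 0.988 to 0.992 for each other array, and 629 genes lay over 2-fold from their mean over the 12 arrays, against at most 37 elsewhere. Results that include the anti-miR-223 group are therefore given with and without it. All 10 macrophage markers were tested, with mean signals from 2.42 for Mertk to 11.2 for Lyz2, while fibroblast, epithelial, lymphoid, and neutrophil or dendritic markers had means between 1.41 and 3.52 on the log2 scale. RNA came from whole cultures, so fewer cells of a type and less RNA per cell cannot be told apart.

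No lysosomal gene passed the test in any of the 3 comparisons (limma, Benjamini-Hochberg adjustment over all 14611 genes, adjusted p under 0.05). The share of all genes called was 0.00% in each comparison. Setting pre-miR-223 beside scramble, 711 of all genes reached an unadjusted p under 0.05 (higher for 1.02%, lower for 3.85%), and 1 lysosomal gene was among them, Tfe3, which was lower. Setting anti-miR-223 beside scramble, 294 did (higher for 0.664%, lower for 1.35%), with 0 lysosomal genes. With pre-miR-223 beside anti-miR-223, 528 did (higher for 1.05%, lower for 2.57%), and the 1 lysosomal gene was again Tfe3. The comparisons share arrays pairwise, so their values are given side by side and no overlap between them is read as a result.

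**Figure D1:**
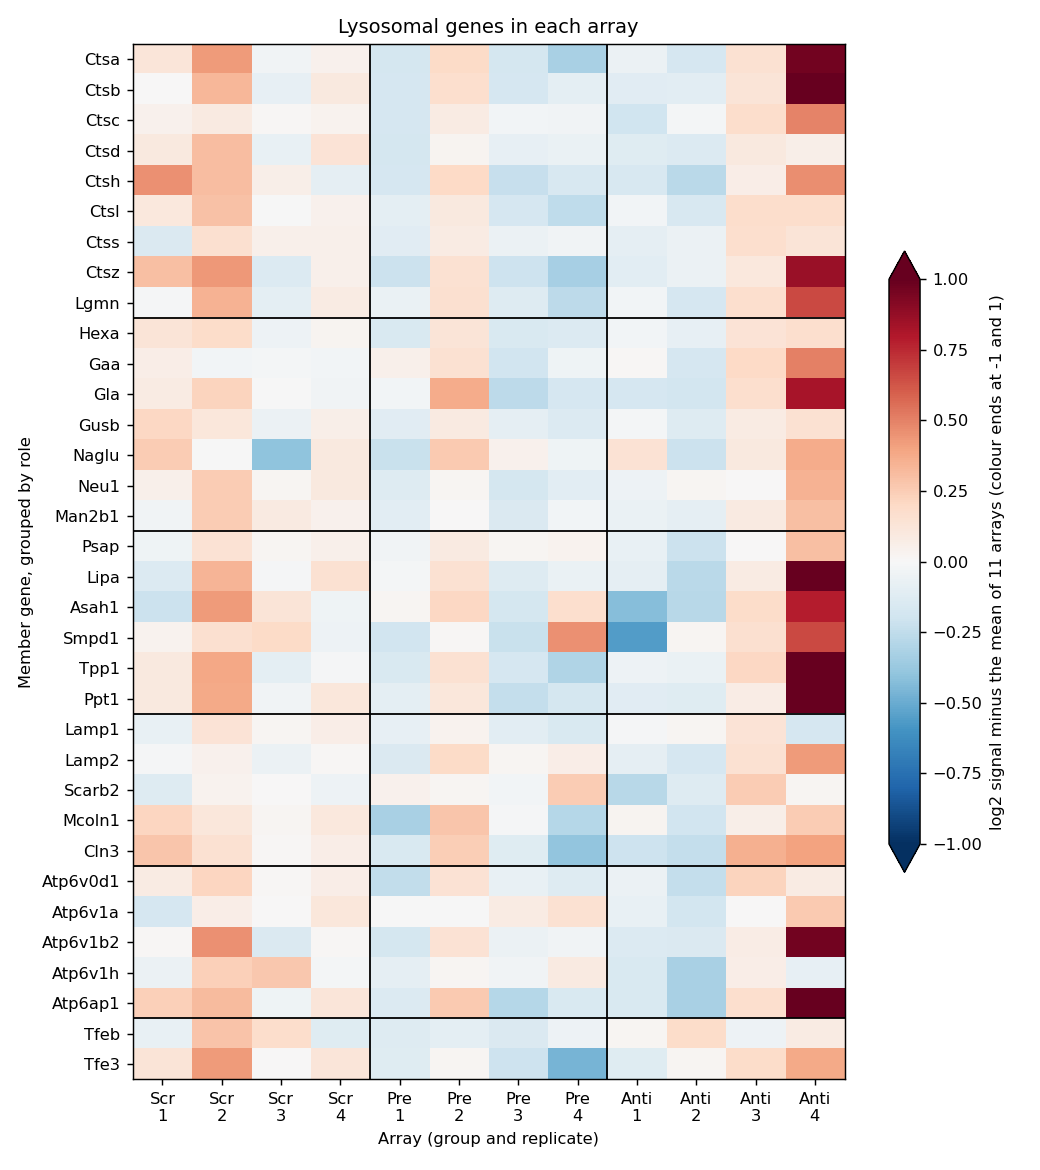
Log2 signal of the 34 measured lysosomal genes (vertical axis, grouped by role) in each of the 12 arrays (horizontal axis: Scr, scramble; Pre, pre-miR-223; Anti, anti-miR-223; replicate below), shown as colour relative to the gene's mean over the 11 arrays other than anti-miR-223 replicate 4; colours end at -1 and 1. Scramble replicate 2, pre-miR-223 replicate 2 and anti-miR-223 replicates 3 and 4 are high for most genes.

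The lysosomal genes differed between arrays of the same group together. Relative to each gene's mean over the 11 arrays other than anti-miR-223 replicate 4, their median log2 signal in scramble replicates 1 to 4 was 0.06, 0.25, 0.0016 and 0.05. In the pre-miR-223 replicates it was -0.13, 0.13, -0.14 and -0.10, and in the anti-miR-223 replicates -0.09, -0.15, 0.14 and 0.39. So 1 pre-miR-223 array stood above 3 of the scramble arrays, and the anti-miR-223 arrays included both the lowest and the highest of all 12. The median over all genes, which were not matched to the lysosomal genes for signal level, moved less, between -0.07 and 0.08.

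Most genes took part in this pattern. Scramble replicate 2 was the highest scramble array for 25 of 34 genes (39.6% of all genes), and pre-miR-223 replicate 2 the highest of its group for 29 (44.2% of all genes). Among anti-miR-223 replicates 1 to 3, replicate 3 was highest for 31 of 34 (47.4% of all genes). The counts depended on scaling: after cyclic loess they were 16, 15 and 25 of 34, against 27.8%, 28.1% and 34.2% of all genes. The median SD of the lysosomal genes within a group was 0.13 in scramble, 0.14 with pre-miR-223 and 0.26 with anti-miR-223, or 0.16 without replicate 4. Over all genes it was 0.14, 0.16 and 0.22, or 0.15 without replicate 4. In scramble and with pre-miR-223 the lysosomal genes thus had the smaller median SD.

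**Figure D2:**
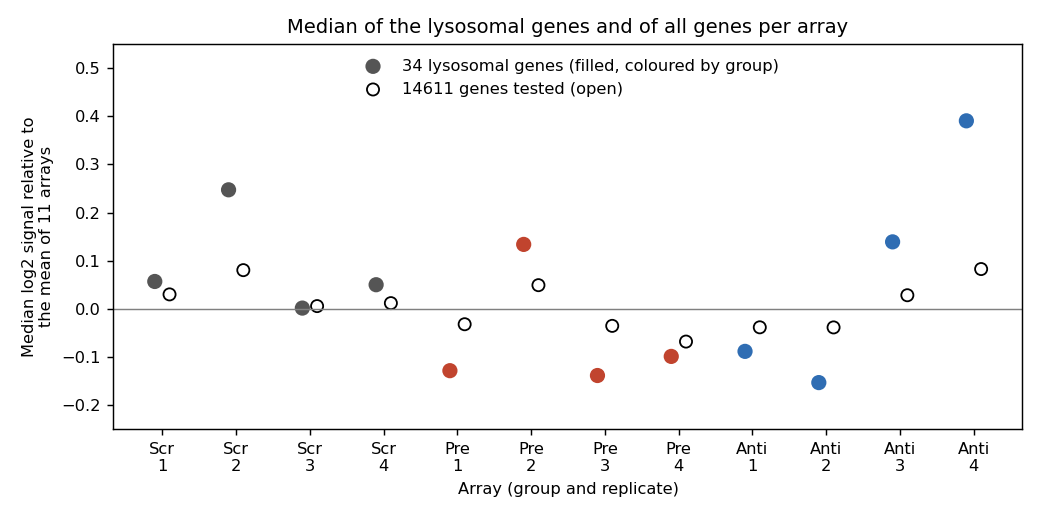
Median log2 signal of the 34 lysosomal genes (filled, coloured by group) and of the 14611 genes tested (open) in each array, relative to the mean of the 11 arrays other than anti-miR-223 replicate 4. The lysosomal median runs from -0.15 to 0.39 and spans more than the median of all genes.

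The comparison of pre-miR-223 with scramble asks whether more miR-223 goes with another level of lysosomal transcripts. Signals were lower with pre-miR-223 for 30 of 34 genes, with a median log2 difference of -0.15, beside -0.05 over all genes, of which 65.2% were lower. The median over all genes depended on signal level: it was -0.02 without a level filter and -0.09 above the 60th percentile. The lysosomal median was -0.15 under both filters. Here and in the comparisons below, all genes were not matched to the lysosomal genes or other lists for signal level. No single gene passed the test (lowest adjusted p by limma 0.921, or 0.521 with anti-miR-223 replicate 4 left out of the shared spread). In none of the 34 did the groups' arrays separate, against 2.20% of all genes separated downwards and 0.773% upwards. The count of lower genes was 25 with arrays centred on their median, 25 with quantile normalisation repeated and 21 after cyclic loess, where the median was -0.03. Without scramble replicate 2, the median was -0.09 with 27 of 34 lower.

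All 9 cathepsins and legumain were lower with pre-miR-223, with differences from -0.32 to -0.06 and a median of -0.19. After cyclic loess Ctss (0.05) and Ctsc (0.03) were higher and the others stayed lower. Ctsl, a cysteine endopeptidase, had log2 signals of 9.06, 9.24, 8.95 and 8.99 in scramble and of 8.85, 9.05, 8.78 and 8.70 with pre-miR-223. The highest pre-miR-223 array lay within the scramble range, and replicates 1, 3 and 4 of pre-miR-223 lay below it. The difference was -0.22 (95% interval -0.46 to 0.03). Ctsd, the main aspartic protease of the lysosome, was at 9.77, 9.98, 9.60 and 9.81 in scramble and at 9.50, 9.70, 9.59 and 9.61 with pre-miR-223, a difference of -0.19 (-0.41 to 0.04). For Ctsd the groups touched near 9.60, with 2 pre-miR-223 arrays at or above the lowest scramble array. Ctsh, an aminopeptidase, was at 6.36, 6.21, 5.96 and 5.81 in scramble and at 5.73, 6.10, 5.67 and 5.74 with pre-miR-223, a difference of -0.28 (-0.64 to 0.08). Its pre-miR-223 replicate 2 lay above scramble replicates 3 and 4.

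Glycosidases trim glycans from glycoproteins, glycolipids and glycosaminoglycans, and 6 of the 7 measured were lower, with a median of -0.15. Neu1, the lysosomal sialidase, was at 5.09, 5.30, 5.06 and 5.14 in scramble and at 4.91, 5.06, 4.87 and 4.94 with pre-miR-223, a difference of -0.20 (-0.44 to 0.03). Only pre-miR-223 replicate 2 reached the lowest scramble value. Naglu, which removes N-acetylglucosamine from heparan sulfate, differed by 0.03 and was the 1 higher member of this group. After cyclic loess Gaa (0.09) and Gla (0.01) were higher as well. The 6 lipid and other hydrolases and activators, which include the saposin precursor Psap and the acid lipase Lipa, were all lower, with a smaller median of -0.09 and a range of -0.24 to -0.02. This held for the deposited values: after cyclic loess Psap (0.10), Asah1 (0.09) and Lipa (0.01) were higher, while Smpd1, Tpp1 and Ppt1 stayed lower.

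Of the 5 membrane proteins, 3 were lower and 2 higher, with a median of -0.11. Lamp1, a heavily glycosylated protein that lines the lysosomal membrane, was at 9.95, 10.16, 10.04 and 10.09 in scramble and at 9.94, 10.06, 9.92 and 9.87 with pre-miR-223. These ranges overlapped through pre-miR-223 replicate 2, and the difference was -0.11 (-0.32 to 0.10), turning to 0.01 with quantile normalisation repeated. Scarb2, the receptor that carries glucocerebrosidase to lysosomes, was the gene with the highest difference, 0.11. Of the 5 pump subunits, 4 were lower, with a median of -0.12. Atp6v1a, the catalytic subunit, was at 7.81, 8.04, 7.98 and 8.09 in scramble and at 7.97, 7.97, 8.06 and 8.13 with pre-miR-223. These ranges lay over each other, with a difference of 0.05 (-0.19 to 0.29).

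Tfe3 had the lowest difference of the 34 genes. Its log2 signals were 6.50, 6.79, 6.37 and 6.49 in scramble and 6.25, 6.39, 6.16 and 5.90 with pre-miR-223. Pre-miR-223 replicate 2 lay just above the lowest scramble array and replicates 1, 3 and 4 lay below all scramble arrays. The group means were 6.54 ± 0.18 and 6.17 ± 0.20 (SD, n = 4 each), a difference of -0.36 (-0.66 to -0.07), and limma gave an adjusted p of 0.921 over all genes. It was the 1 lysosomal gene with an unadjusted p under 0.05, where 3.85% of all genes passed downwards. Tfeb, its relative, had a low signal of 2.63, 2.99, 2.88 and 2.59 in scramble and 2.58, 2.61, 2.56 and 2.66 with pre-miR-223. The narrow pre-miR-223 range overlapped the lower scramble arrays, with a difference of -0.17 (-0.40 to 0.06).

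For the 1 cluster used per gene, the 95% intervals bound how large a change these arrays could have missed. The second clusters of Atp6v1b2 and Smpd1 were not counted here. That of Atp6v1b2 had an interval of 0.06 to 1.99 for pre-miR-223 against scramble, beyond 2-fold at its upper end. For pre-miR-223 against scramble the intervals of the clusters used lay inside a 2-fold change in either direction for all 34 genes (98.5% of all genes). They lay inside a 1.5-fold change for 24 of 34 (82.8% of all genes). For anti-miR-223 against scramble the counts were 34 and 31 of 34 (98.9% and 88.1% of all genes), and the same 2 counts held without anti-miR-223 replicate 4. Between pre-miR-223 and anti-miR-223 they were 33, with Tpp1 the exception, and 23 (97.9% and 82.9% of all genes), but 34 and 34 without that array (99.6% and 91.8%). Leaving it out also took the count inside 1.5-fold for pre-miR-223 against scramble to 32. The macrophage markers had differences of the same sign: 9 of 10 were lower with pre-miR-223, with a median of -0.24 and array means of 7.78 to 8.19 against 8.03 to 8.26 in scramble. Over all genes 65.2% were lower (median -0.05), and the marker count was not repeated under other scalings. The part of the markers in the lysosomal values was not tested.

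**Figure D3:**
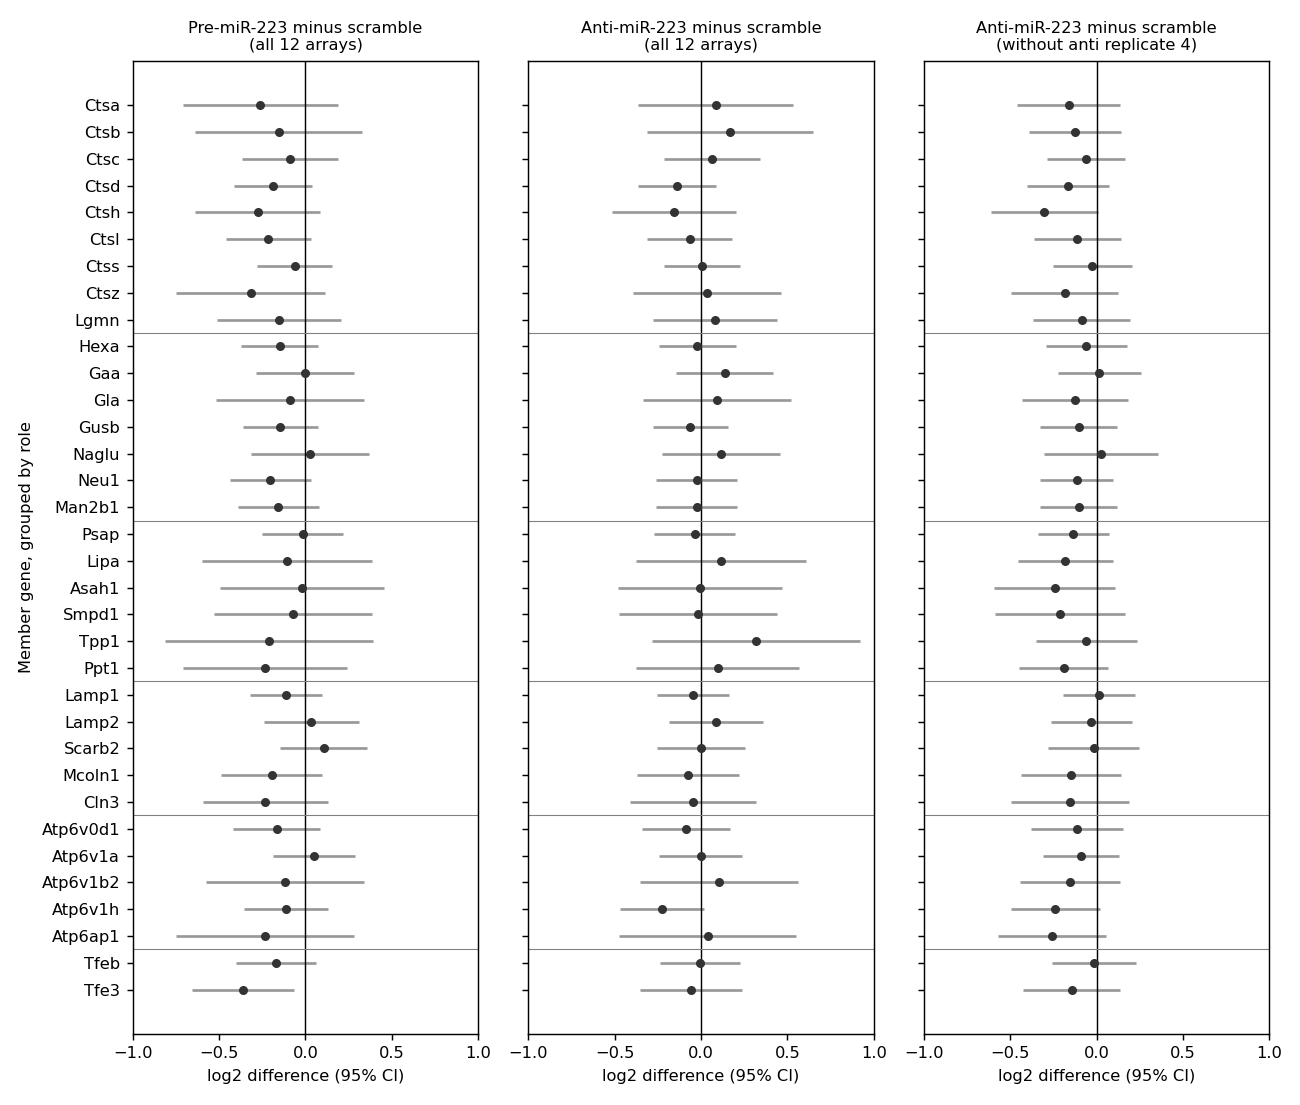
Log2 difference of group means with 95% interval (limma) for each of the 34 lysosomal genes (vertical axis, grouped by role), for pre-miR-223 against scramble, for anti-miR-223 against scramble with all 12 arrays, and for anti-miR-223 against scramble without anti-miR-223 replicate 4. Of the 34 points, 30 lie below 0 on the left, 19 in the middle and 31 on the right.

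Against scramble, anti-miR-223 gave values on both sides of 0. With all arrays 19 of 34 lysosomal genes were lower and 15 higher, with a median log2 difference of -0.0049 beside -0.0068 over all genes, of which 52.5% were lower. No array separation was found, against 1.03% of all genes downwards and 0.520% upwards. Without anti-miR-223 replicate 4, 31 of 34 genes were lower and the median was -0.12, beside -0.05 and 63.6% lower over all genes. The smallest adjusted p among the lysosomal genes was 0.99997 with all arrays and 0.712 without that array. Without it, too, no lysosomal gene separated by array, against 4.53% of all genes downwards and 2.02% upwards.

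Among the cathepsins and legumain, 3 of 9 were lower with all arrays and 9 of 9 without replicate 4, where the median was -0.12. Ctsd was at 9.55, 9.54, 9.77 and 9.73 with anti-miR-223, 1 of the members that replicate 4 hardly moved. Its difference was -0.14 (-0.37 to 0.08), or -0.17 without that array. Ctsh was at 5.74, 5.63, 5.97 and 6.37, so that replicate 4 lay just above the top of the scramble range while the others lay near or below its lower end. Its difference of -0.16 (-0.52 to 0.20) became -0.30 (-0.61 to 0.0047) without replicate 4, the smallest p of the list in that fit.

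Of the glycosidases, Gaa, which frees glucose from glycogen, was at 4.82, 4.72, 4.73 and 4.72 in scramble and at 4.76, 4.58, 4.95 and 5.25 with anti-miR-223. The anti-miR-223 arrays spread to both sides of the tight scramble values, and the difference of 0.14 (-0.15 to 0.42) was 0.015 without replicate 4. Tpp1, a tripeptidyl peptidase of the hydrolase group, was at 7.65, 7.94, 7.45 and 7.54 in scramble and at 7.50, 7.48, 7.76 and 9.10 with anti-miR-223. The first 3 anti-miR-223 arrays lay inside the scramble range and replicate 4 far above it. The difference changed from 0.32 (-0.29 to 0.92) to -0.06 without replicate 4.

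Lamp1 was at 10.01, 10.04, 10.16 and 9.85 with anti-miR-223, close to the scramble values. Its difference of -0.05 (-0.25 to 0.16) turned to 0.01 without replicate 4. Atp6v1h, a regulatory subunit of the pump, was at 6.32, 6.62, 6.65 and 6.36 in scramble and at 6.23, 6.06, 6.45 and 6.30 with anti-miR-223. Only anti-miR-223 replicate 3 entered the scramble range. Its difference of -0.23 (-0.47 to 0.02) had the smallest p of the list with all arrays, and was -0.24 (-0.50 to 0.02) without replicate 4. Atp6v1a, at 7.90, 7.79, 7.98 and 8.24, differed by -0.0032 (-0.24 to 0.24), or -0.09 without replicate 4. Tfeb, at 2.73, 2.89, 2.66 and 2.79, lay within the scramble range and differed by -0.0065 (-0.24 to 0.22), or -0.016 without replicate 4. Tfe3, at 6.25, 6.39, 6.55 and 6.75, overlapped the scramble arrays and differed by -0.06 (-0.35 to 0.24), or -0.15 without replicate 4.

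Set directly against each other, pre-miR-223 was below anti-miR-223 for 30 of 34 genes, with a median difference of -0.14 beside -0.04 and 62.8% lower over all genes. Without anti-miR-223 replicate 4 the count was 21 of 34 and the median -0.03, beside 52.2% of all genes. For Tfe3, again the gene of smallest p, the difference was -0.31 (-0.60 to -0.01), and -0.22 (-0.50 to 0.06) without replicate 4. The adjusted p by limma was 0.946 and 0.964. For Tfeb all 4 pre-miR-223 arrays lay below all anti-miR-223 arrays, by a margin under the second decimal (2.66 on both sides). The difference was -0.164 (-0.39 to 0.07), or -0.155 without replicate 4. Tfeb was the 1 lysosomal gene whose groups separated, with and without replicate 4, where 0.972% and 2.53% of all genes separated downwards and 0.698% and 2.31% upwards.

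Several hydrolases had wide differences in this comparison that rested on replicate 4. Tpp1 differed by -0.53 (-1.13 to 0.07) with all arrays and by -0.15 without it. Ctsz, a carboxypeptidase of the cathepsin family, was at 9.23, 9.60, 9.24 and 9.11 with pre-miR-223 and at 9.34, 9.39, 9.55 and 10.31 with anti-miR-223. Its ranges overlapped, and the difference of -0.35 (-0.78 to 0.08) was -0.13 without replicate 4. Ctsa, which protects the beta-galactosidase and sialidase complex, was at 9.09, 9.46, 9.09 and 8.94 with pre-miR-223 and at 9.21, 9.10, 9.42 and 10.23 with anti-miR-223, differing by -0.35, or -0.10 without it. Neu1, at 4.99, 5.06, 5.05 and 5.39 with anti-miR-223, differed by -0.18 (-0.41 to 0.06), or -0.09. Lamp1, Ctsd and Atp6v1a differed by -0.07, -0.05 and 0.05, or by -0.12, -0.02 and 0.14 without replicate 4, and each of these turned sign under another scaling or without 1 array.

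**Figure D4:**
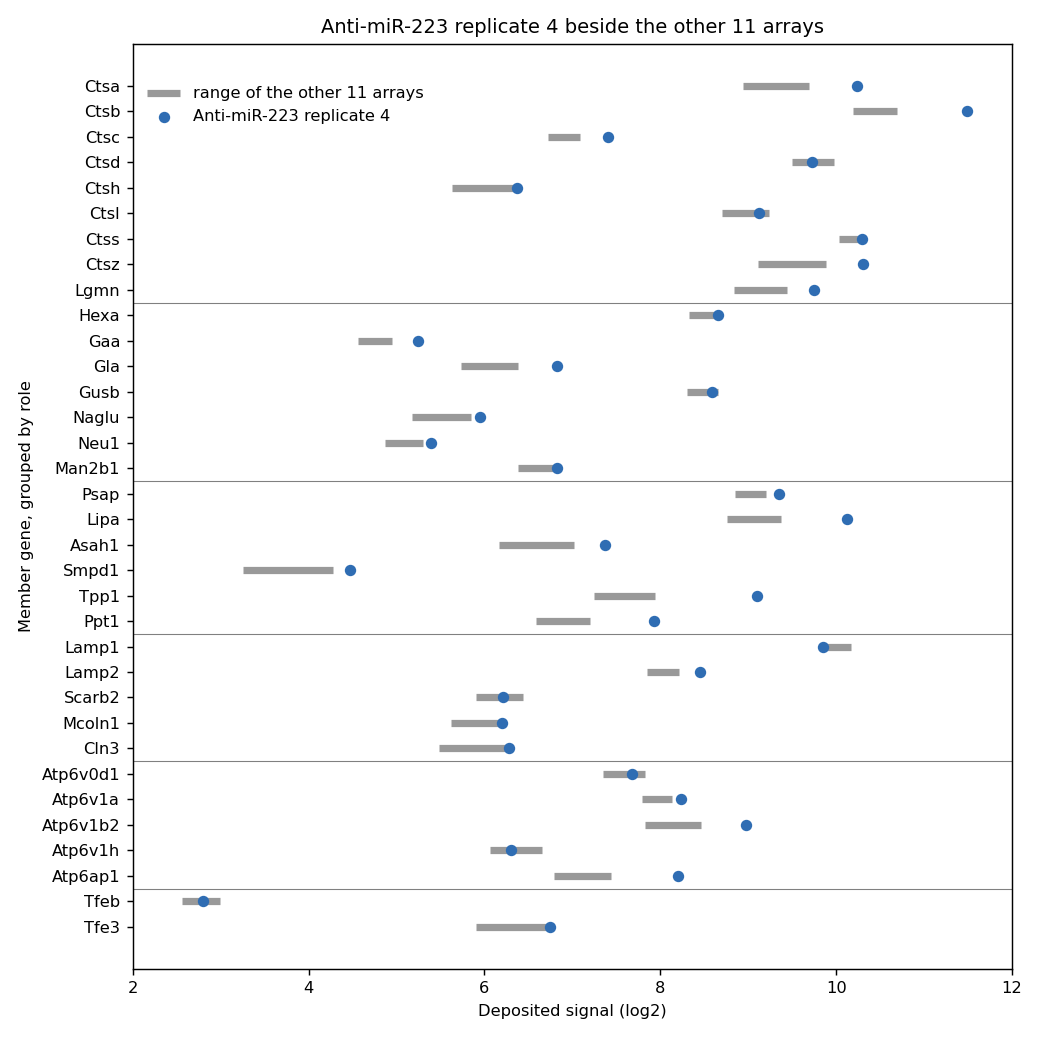
Deposited log2 signal (horizontal axis) of each of the 34 lysosomal genes (vertical axis, grouped by role) in anti-miR-223 replicate 4 (points) and the range of the other 11 arrays (bars). The point lies above the bar for 22 genes and below it for Lamp1.

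Anti-miR-223 replicate 4 was not high for every lysosomal gene. It lay above all other 11 arrays for 22 of 34 genes, against 34.1% of all genes, and below all of them for Lamp1, against 13.5%. The median difference from the mean of the other 11 arrays was 0.39, beside 0.08 over all genes. Over 2-fold above that mean were 5 of 34 genes, against 4.43% of all genes, and none lay over 2-fold below, against 1.16%. The count of 22 was 13 with arrays centred on their median (19.4% of all genes), 17 with quantile normalisation repeated (26.8%) and 16 after cyclic loess (26.5%).

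The genes that stood highest were of different classes, but the classes differed. The lipid and other hydrolases had a median of 0.94 above the mean of the other arrays, and the other classes had medians of 0.23 to 0.49. Tpp1 was 1.55 above the mean of the other arrays on the log2 scale and Ctsb, an abundant cysteine protease, 1.13, with 11.49 in this array against 10.19 to 10.69 elsewhere. Ppt1, which removes palmitate from proteins, was 1.10 above and Lipa, which frees cholesterol and fatty acids from lipoproteins, 1.09, with 10.13 against 8.76 to 9.37. Atp6ap1, an accessory subunit of the pump, was also 1.09 above, at 8.20 against 6.79 to 7.43. All 6 lipid and other hydrolases exceeded the other arrays, as did 6 of 9 cathepsins and legumain, 5 of 7 glycosidases, 3 of 5 pump subunits, 2 of 5 membrane proteins and neither transcription factor.

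Some cathepsins, pump subunits and membrane proteins lay closer to the mean of the other arrays. Ctsd was 0.05 above their mean, Ctss, the cathepsin that trims the invariant chain, 0.13, and Ctsl 0.18. The pump subunits Atp6v0d1 and Atp6v1h were at 0.08 and -0.08, beside 0.97 for Atp6v1b2. Lamp1 was at -0.18, while Lamp2, the partner that also serves chaperone-mediated autophagy, was at 0.43. Over the 11 tested genes with TCACGTG in the promoter window the median was 0.37 (range -0.18 to 0.97), and over the 18 without it 0.36 (0.02 to 1.55). Of the 5 genes over 2-fold above, 0 had the heptamer, 4 lacked it and Ctsb had no promoter entry; no test was made of this split. What sets this array apart was not tested.

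**Figure D5:**
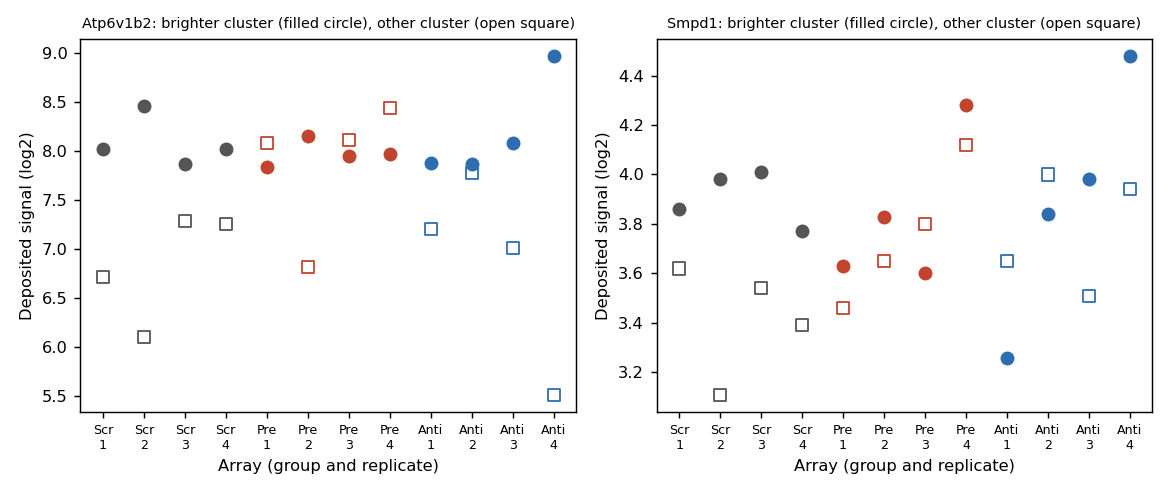
Deposited log2 signal (vertical axis) in each array (horizontal axis: Scr, scramble; Pre, pre-miR-223; Anti, anti-miR-223; replicate below) of both probe clusters of Atp6v1b2 (left) and Smpd1 (right); filled circles are the brighter cluster used in the comparisons and open squares the other. For Atp6v1b2 the open squares are low where the filled circles are high.

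The second clusters of Atp6v1b2 and Smpd1 gave other values than those used. Atp6v1b2, a pump subunit that binds nucleotide, had 6.71, 6.10, 7.28 and 7.25 in scramble, 8.08, 6.81, 8.11 and 8.44 with pre-miR-223, and 7.20, 7.77, 7.01 and 5.51 with anti-miR-223 in its second cluster. Each group's lowest array there was the one with the group's highest signal in the brighter cluster (8.46, 8.15 and 8.97). In a fit over the 15458 single-symbol clusters above the level filter, the second cluster differed by 1.03 (0.06 to 1.99) between pre-miR-223 and scramble, with an adjusted p of 0.891 by limma, and the brighter one by -0.12. It differed by 0.99 (0.02 to 1.95) between pre-miR-223 and anti-miR-223, a value that includes the low replicate 4: the anti-miR-223 mean was 6.87 with it and 7.33 without it, against 7.86 for pre-miR-223. Between pre-miR-223 and scramble, Smpd1, acid sphingomyelinase, differed by 0.34 (-0.0049 to 0.69) in its second cluster and by -0.07 in the brighter one. Between anti-miR-223 and scramble the values were 0.36 (0.01 to 0.71) and -0.02, and between pre-miR-223 and anti-miR-223 -0.02 and -0.05. In the second cluster the anti-miR-223 mean was 3.78, or 3.72 without replicate 4, against 3.41 in scramble. Its adjusted p by limma was 0.891 or higher in each comparison. Which transcripts each cluster covers was not analysed here.

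The rest of the lysosomal pathway, in lists drawn up by function, also held no gene that passed the test. With pre-miR-223 against scramble, 15 of 18 other hydrolases were lower (median -0.17), as were 9 of 12 other pump subunits (-0.16), 13 of 15 other membrane proteins (-0.13) and 10 of 11 sorting genes (-0.12). The list of other membrane proteins also held Npc2, a soluble protein of the lumen, which was among the lower genes (-0.22). Over all genes 65.2% were lower (median -0.05), and the list counts were not repeated under other scalings. The genes with the smallest p in these lists were Gm2a, the activator of ganglioside breakdown, at -0.38 (-0.81 to 0.05), Atp6v0b, a pump proteolipid, at -0.41 (-0.69 to -0.14), Cd68 at -0.34 (-0.63 to -0.05) and the mannose 6-phosphate receptor M6pr at -0.28 (-0.71 to 0.14). Their adjusted p by limma was 0.921 each. Cd68 is also among the macrophage markers above.

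For anti-miR-223 against scramble the same lists had medians of 0.01, -0.02, 0.03 and -0.03, and of -0.15, -0.10, -0.15 and -0.18 without replicate 4. Ctsk, a collagen-degrading cathepsin, had the smallest p of the other hydrolases at 0.23 (-0.04 to 0.50), or 0.19 without replicate 4. Atp6v1c1 was at 0.17, or 0.03 without that array, and the cholesterol carrier Npc2 at -0.19, or -0.18. The sorting receptor Igf2r was at -0.15, or at -0.29 (-0.54 to -0.04) without it, where its anti-miR-223 arrays all lay below the scramble arrays. In that fit 4 of 18 other hydrolases separated downwards, as did 2 of 12 other pump subunits, 1 of 15 other membrane proteins and 2 of 11 sorting genes. Over all genes 4.53% did, and 0 genes of these lists separated upwards, against 2.02%. The smallest p of the other hydrolases there was that of Ctso, at -0.42 (-0.71 to -0.12), which also separated. Between pre-miR-223 and anti-miR-223, Fuca1, which removes fucose, was at -0.32 (-0.61 to -0.03), Atp6v0e at -0.38 (-0.74 to -0.02) and Cd68 at -0.27 (-0.57 to 0.02), or at -0.25, -0.39 and -0.19 without replicate 4. Rab7, the GTPase of late endosomes, was at -0.51 (-1.33 to 0.32), a value that rested on replicate 4, since it was -0.02 (-0.50 to 0.45) without it. None of these passed after adjustment, with or without that array.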

How the data were processed

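Per the labels, total RNA was hybridised to Affymetrix arrays (GeneChip WT PLUS labelling). RMA, Partek and Affymetrix Expression Console appear in the submitters' processing notes; versions and the genome build are not given in the sources used here. The authors deposited normalised values per probe cluster, taken as log2 from their range (0.53 to 12.4). Of the annotated clusters, 23521 had 1 gene symbol and 1814 several, and 16010 clusters had none; names came from the platform annotation. Each gene was represented by its single-symbol cluster with the highest mean, and genes above the 40th percentile of cluster means (log2 2.01) were tested. limma 3.58.1 (R 4.3.3) fitted 3 group means over 12 arrays; p-values are 2-sided, Benjamini-Hochberg adjusted over 14611 genes. The procedure was tested on simulated data. Genes and lists were chosen with earlier results of these data known. Named genes were the 5 members with the smallest p per comparison, with Lamp1, Ctsd, Tfeb and Atp6v1a throughout, and the smallest p of each other list. Members named for anti-miR-223 replicate 4, for 2 clusters or as extremes were chosen after their values were seen. Alternatives were other scalings, level filters, cluster means, variance models, array weights, a replicate block and each array left out.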

Additional observations from a re-analysis of the deposited data

Results flagged for a closer look

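In 5 of 105 groups of 4 arrays examined (the 34 genes and the lysosomal median in each treatment), 1 array lay far from the other 3 by Dixon's 95% criterion, which chance alone meets in about 1 of 20 groups. Over all genes it was met for 5.65% in scramble, 5.54% with pre-miR-223 and 8.19% with anti-miR-223. With pre-miR-223, replicate 2 was far above the others for Ctsh (6.10) and for Hexa (8.61), the alpha subunit of beta-hexosaminidase, and so was its lysosomal median relative to the 12-array mean (0.07). Gaa was high in scramble replicate 1 (4.82), where the other scramble arrays spanned 4.72 to 4.73. Ppt1 was high in anti-miR-223 replicate 4 (7.92).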

How the results depend on the processing

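No lysosomal gene, nor any other gene, passed the test in any of the 23 alternatives in any comparison; the lowest adjusted p of a lysosomal gene was 0.283, for pre-miR-223 against scramble with array weights. The median difference for that comparison moved from -0.15 to -0.0339 after cyclic loess and ranged from -0.21 to -0.09 with each array left out; for anti-miR-223 against scramble it ranged from -0.12 to 0.06, and for pre-miR-223 against anti-miR-223 from -0.20 to -0.03. The sign turned for 13, 27 and 15 of 34 lysosomal genes in at least 1 alternative. For pre-miR-223 against scramble they included Lamp1 (0.0147, quantile normalisation repeated). Of the other lists, Gabarap (0.0373) and Cst3 (0.33) turned with the mean of a gene's clusters. For anti-miR-223 against scramble they included Lamp1 (0.0140, quantile normalisation; -0.0942 to 0.0114 with each array left out), Tfeb (0.00714 with array weights; -0.0692 to 0.0659) and Tpp1 (-0.0613 to 0.48). For pre-miR-223 against anti-miR-223 they included Lamp1 (0.00960) and Ctsd (0.0279) with arrays centred on their median, Ctsd after cyclic loess (0.0215) and Atp6v1a (-0.00874 to 0.14 with each array left out). The causes were not tested. Same-numbered arrays did not deviate together throughout (correlations of -0.50 to 0.39, and 2 of 12 arrays correlated best with their own number). Differently numbered arrays had correlations of -0.40 to 0.52. Scramble and pre-miR-223 replicates 2 correlated at 0.39 with each other, but at -0.46 and -0.50 with anti-miR-223 replicate 2. With a replicate block 0 lysosomal genes passed, and 547 against 711 of all genes had an unadjusted p under 0.05 for pre-miR-223 against scramble. Low signals such as those of Tfeb limit what a difference can show.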

Other observations

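Genes that control or deliver cargo to the lysosome were listed beside the digestive genes, and none passed the test. With pre-miR-223 against scramble, 11 of 13 autophagy genes were lower (median -0.15), as were 13 of 16 genes of nutrient sensing and TFEB control (-0.13) and 3 of 4 protease inhibitors (-0.11), beside 65.2% of all genes (median -0.05). Gabarap, an adaptor of the autophagosome membrane, differed by -0.48 (-0.84 to -0.11), Lamtor4, a part of the Ragulator complex that anchors mTORC1, by -0.34 (-0.72 to 0.04), and Cst3, the cystatin that inhibits cysteine cathepsins, by -0.19 (-0.49 to 0.11). Gabarap and Cst3 turned sign with the mean of a gene's clusters.

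For anti-miR-223 against scramble, Gabarapl2 differed by -0.34 (-0.64 to -0.05), Lamtor1 by -0.17 (-0.41 to 0.08) and the cathepsin inhibitor Cstb by -0.20 (-0.55 to 0.16). Leaving out replicate 4 gave -0.33, -0.07 and -0.02 (-0.28 to 0.24). The medians of the 3 lists were -0.07, -0.03 and -0.13, and -0.21, -0.08 and -0.04 without replicate 4. Between pre-miR-223 and anti-miR-223, Ulk1, the kinase that starts autophagy, differed by -0.34 (-0.61 to -0.07), Lamtor3 by -0.29 (-0.53 to -0.04) and Stfa1 by 0.33 (0.03 to 0.63), a value at a low signal. Without replicate 4 they were -0.25, -0.19 and 0.32. The adjusted p by limma was 0.946 for each with all arrays and 0.964 without replicate 4.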
